A study of Mus musculus with 8 samples.

Results

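Interferon-stimulated genes are the transcripts that a cell makes when an interferon binds its surface receptor. They were followed here in the tongue epithelium of mice in which an oncogenic programme had been switched on, and, beside it, in the T cells and myeloid cells of the same libraries. The list named 36 such genes, chosen by symbol. Of these, 34 were among the 32285 features of the count tables and are described here, and Mx1 and Mx2 were not analysed here. The study used droplet 3′ single-cell RNA sequencing of viable cells sorted from tongue epithelium, with 8 libraries in 4 groups of 2 (N1, N2 and so on), taken 15 days after induction. All groups carried Krt14-CreERT and LSL-rtTA, and according to the study's methods an H2B-GFP reporter. All received tamoxifen into the tongue, with doxycycline in the diet from the day of the first dose. Group N carried nothing more. Group E also carried tetON_E6-E7, the pair of human papillomavirus 16 oncogenes that disable p53 and RB. Group Y carried tetON_YAP1S127A, a YAP that resists phosphorylation by its inhibitory kinases, and group EY carried both. The methods describe age- and sex-balanced young adult littermates. The Krt14 promoter directs the recombination to basal epithelial cells, and the T and myeloid cells described here carry the same alleles without that promoter being active in their lineages. The title of the second N library carries more than 1 animal number, so that library may hold pooled animals, and the p-values below measure the spread between these 8 libraries.

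Type I interferons (alpha, beta and their relatives) and type III interferons (lambda) signal through the kinases JAK1 and TYK2 to the complex ISGF3, which includes STAT2 and IRF9. ISGF3 binds interferon-stimulated response elements in promoters and raises the same set of genes in nearly every cell type: sensors of foreign nucleic acid, enzymes that destroy or stall viral RNA, proteins that trap virions, and the transcription factors of the pathway itself. Type II interferon (gamma), made mainly by T and natural killer cells, signals through a receptor of its own and favours another, overlapping set. In stratified epithelia the lambda receptor is prominent, whereas most haematopoietic cells respond to the type I forms.

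The proximal promoters of many of the genes hold the core of the response element, GAAA followed after any 2 bases (NN) by a second GAAA. Searched on both strands, where it reads GAAA, NN, GAAA or TTTC, NN, TTTC, in the 250 bases before each annotated start (RefSeq, GRCm38.p6), it was present in 11 of the 27 members whose symbol matched, or 40.7%, against 936 of 27025 genes, or 3.46%. Zbp1, Usp18, Oas2, Parp9, Parp14, Ifi27l2a and Rtp4 had no match in the promoter table. The windows below are those of members that carry the results that follow, and the capitals mark every base in a match, with overlapping matches run together.
Isg15, chr4:156200861-156200910 (minus strand): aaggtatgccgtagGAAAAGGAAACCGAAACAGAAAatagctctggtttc
Ifit1, chr19:34640784-34640833 (plus strand): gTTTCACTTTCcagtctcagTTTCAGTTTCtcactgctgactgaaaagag
Ifit3, chr19:34583387-34583436 (plus strand): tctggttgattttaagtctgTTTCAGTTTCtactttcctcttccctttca
Ifit3b, chr19:34607783-34607832 (plus strand): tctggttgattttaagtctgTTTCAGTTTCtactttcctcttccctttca
Rsad2, chr12:26456543-26456592 (minus strand): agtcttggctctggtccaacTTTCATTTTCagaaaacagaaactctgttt
Bst2, chr8:71537567-71537616 (minus strand): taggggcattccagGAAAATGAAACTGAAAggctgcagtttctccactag
Trim30a, chr7:104465200-104465249 (minus strand): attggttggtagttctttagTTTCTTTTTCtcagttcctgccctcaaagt
The windows of Ifit3 and Ifit3b were identical over their whole length. A match describes these letters and was not tested as a binding site.

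The libraries held 2916 to 8139 cell barcodes each, 42550 in all, and 25199 remained after the limits on genes, unique molecular identifiers (UMIs) and mitochondrial share. Epithelial cells were those with at least 0.5% of UMIs in Krt5, Krt14, Krt15, Krt13 and Krt6a and no UMI of the leukocyte gene Ptprc. They numbered 12957, from 170 in EY1 to 4055 in E1, with 2454816 to 55154619 UMIs in those sums. T cells (5283) and myeloid cells (4698) were taken from the remainder by CD3 and by macrophage and granulocyte genes. The upper limits on genes and UMIs left out epithelial cells unevenly. Without them the gate held 481 cells in EY1 against 170 with them, 741 in N2 against 415 and 944 in E2 against 553. In N1 it held 3521 against 3447. The median depth of the EY1 cells was 39769 UMIs without the limits and 13534.5 with them. Pairs of libraries shared 2 to 19 barcodes, at most 0.393% of the smaller one. Levels are UMI counts per 1000000 (CPM) of the summed UMIs of a cell class in a library, scaled between libraries by the trimmed mean of M values (TMM) and not per transcript length, so they compare libraries and not genes. Sums over the members were not TMM-scaled. Yap1, whose counts can include the transgene, stood at 34.5 and 41.7 CPM in the epithelium of N, 31.5 and 46.1 in E, 215 and 447 in Y and 216 and 174 in EY, as the labels have it. The E6-E7 transcripts are not among the features. Col1a1 stayed at or under 2.04 CPM and Trac at or under 1.29 CPM in every epithelial sum, but the 5 T-cell markers with Trac summed to 3.81 to 12.8 CPM in N, E and Y and to 15.5 and 30.2 CPM in EY, mostly from Trbc2. The 6 myeloid markers summed to 34.9 to 153 CPM in N, E and Y and to 272 and 1098 CPM in EY, mostly from the neutrophil gene S100a9. Dcn, a proteoglycan gene of the fibroblast list, measured 27.0 to 1222 CPM there, lowest in EY.

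The members stood higher in the epithelial cells of E than in those of N, and 19 of the 34 passed the test. All 34 were higher in both E libraries than in both N libraries, where 15.9% of all 13555 genes tested lay above in this way. Summed without Ifi27l2a, a single gene that took 23.6 to 63.5% of the members' UMIs, the members stood at 426 and 300 CPM in N and 2519 and 1982 CPM in E, a ratio of group means of 6.21. In edgeR's quasi-likelihood test with Benjamini-Hochberg adjustment, these 19 rose at an adjusted p under 0.05, against 0.236% of all genes. All 34 had an unadjusted p under 0.05, as did 506 of the 13555 genes. The median log2 fold change of the members was 2.59, with a range from 1.35 for Dtx3l to 6.22 for Ifit3, beside -0.01 over all genes. The number of calls changed with the libraries in the fit: it was 0 without N replicate 1, N replicate 2, E replicate 2 or EY replicate 1, 1 without E replicate 1, 12 without EY replicate 2, and 1 when only N and E entered the fit, while all 34 fold changes stayed positive in each of these.

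**Figure D1:**
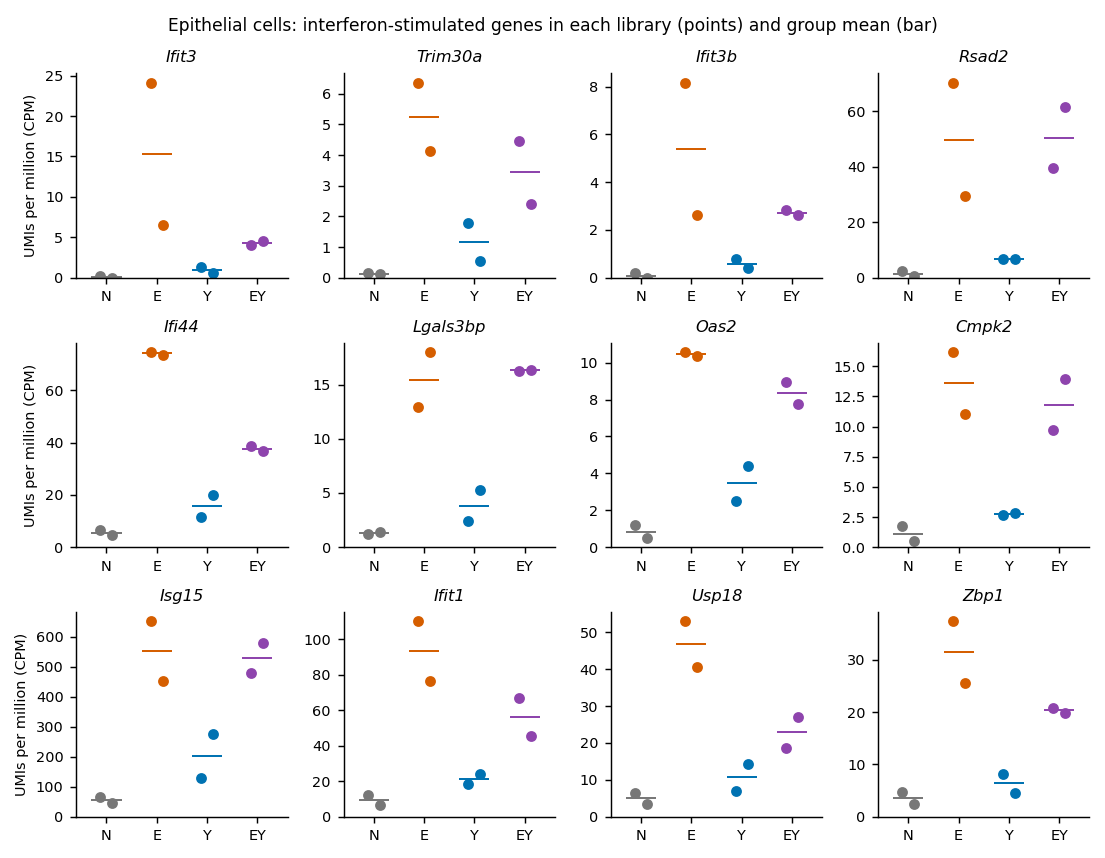
Level of 12 members in the epithelial cells of each of the 8 libraries, in CPM on a linear axis from 0 with its own scale in each panel. Points are libraries and bars are the means of the 2 libraries of a group. In all 12 panels both E points lie above both N points.

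Of the factors that carry the signal, Stat2, a part of ISGF3, measured 7.61 and 6.67 CPM in N, 31.1 and 34.4 in E, 9.88 and 10.7 in Y and 32.5 and 19.9 in EY. The 4 libraries with E6-E7 all lay above the 4 without. Against N, the log2 fold change of Stat2 was 2.18 in E (SE 0.25, adjusted p = 0.0268) and 1.82 in EY (SE 0.26, adjusted p = 0.00975), both past the test. Irf7, the factor that amplifies type I interferon production, was called in EY (log2 fold change 2.31, SE 0.39, adjusted p = 0.0145) and had a value of 2.51 in E (SE 0.38, adjusted p = 0.0785). Irf9, the DNA-binding part of ISGF3, passed in neither, with 1.45 (adjusted p = 0.298) and 0.82 (adjusted p = 0.0971).

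The sensors of nucleic acid were led by Zbp1 (chromosome 2, 173206612 to 173218923, minus strand), which binds left-handed double-stranded RNA and DNA. Zbp1 stood at 4.78 and 2.50 CPM in N, 37.3 and 25.6 in E, 8.14 and 4.63 in Y and 20.7 and 19.9 in EY. Y overlapped N, and E and EY lay above both. It rose by 3.03 (SE 0.39, adjusted p = 0.0331) in E and 2.39 (SE 0.39, adjusted p = 0.0134) in EY. Ddx58, which encodes RIG-I, also rose in both, and 4 of the 5 sensors were called in EY. Ifih1 (MDA5) and the RNA-dependent kinase Eif2ak2 had adjusted p-values of 0.0536 and 0.0514 in E. Ddx60, a helicase linked to RIG-I, was not called against N in either group.

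The ISG15 system, a ubiquitin-like tag and its remover, rose in both E and EY. Isg15 (chromosome 4, 156199424 to 156200818, minus strand) measured 65.5 and 44.4 CPM in N, 651 and 451 in E, 130 and 275 in Y and 479 and 578 in EY. The 3 transgenic groups each lay above N, and the E and EY libraries overlapped each other. The log2 fold changes were 3.32 in E (SE 0.40, adjusted p = 0.0306), 1.87 in Y (SE 0.38, adjusted p = 0.099) and 3.26 in EY (SE 0.40, adjusted p = 0.00827). Usp18 (chromosome 6, 121245906 to 121270917, plus strand), which cleaves ISG15 from proteins and damps the type I receptor, measured 6.42 and 3.57 CPM in N, 53.0 and 40.5 in E, 7.08 and 14.2 in Y and 18.7 and 27.2 in EY. Both EY values lay between those of N and E. It rose by 3.16 in E (SE 0.42, adjusted p = 0.0393) and 2.17 in EY (SE 0.42, adjusted p = 0.0191).

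The IFIT genes, whose products bind viral RNA ends, lie close together on chromosome 19. Ifit2 starts at 34550694, Ifit3 at 34583531, Ifit3b at 34607970 and Ifit1 at 34640871, all on the plus strand. Another gene, Ifit1bl1, lies between Ifit3 and Ifit3b on the minus strand. Ifit1 measured 12.03 and 6.43 CPM in N, 110 and 76.7 in E, 18.6 and 24.2 in Y and 66.6 and 45.2 in EY, so that the groups stood in the order N, Y, EY, E with no overlap. It rose by 3.29 in E (SE 0.36, adjusted p = 0.0259) and 2.53 in EY (SE 0.36, adjusted p = 0.00975). Ifit3 had 13 and 0 UMIs in the N sums and 1384 and 82 in the E sums, or 0.257 and 0 CPM against 24.1 and 6.54 CPM, with 1.36 and 0.604 CPM in Y and 4.06 and 4.60 CPM in EY. Both E and both EY libraries lay above all N and Y libraries. The fitted log2 fold changes of Ifit3 were 6.22 in E (SE 0.90, adjusted p = 0.0557) and 4.41 in EY (SE 0.91, adjusted p = 0.0218), and they depend on the prior count because N2 was at 0. Ifit3b measured 0.178 and 0 CPM in N, 8.15 and 2.63 in E, 0.763 and 0.402 in Y and 2.84 and 2.61 in EY, and was called in EY alone (4.22, SE 0.85, adjusted p = 0.021). Ifit3 and Ifit3b are near-identical copies, so the split of their reads is uncertain. Ifit2 was called in EY, at 1.90 (SE 0.54, adjusted p = 0.0472).

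The oligoadenylate synthetases make the messenger that activates RNase L, and the Oasl genes are related to them. Oas2 (chromosome 5, 120730333 to 120749853, minus strand) measured 1.19 and 0.477 CPM in N, 10.6 and 10.4 in E, 2.50 and 4.43 in Y and 8.94 and 7.74 in EY. The 4 groups again did not overlap. Oas2 rose by 3.45 in E (SE 0.42, adjusted p = 0.0311) and 3.10 in EY (SE 0.43, adjusted p = 0.00957). Oas1a and Oasl2 rose in both groups too, and all 5 members of the family rose in EY. Oasl1, which limits IRF7 translation, had another order: 0.849 and 0.953 CPM in N, 6.56 and 1.99 in E, 1.36 and 7.24 in Y and 6.09 and 19.6 in EY. Its highest value was in EY2, its E and Y libraries overlapped, and it was called in EY (3.97, SE 0.99, adjusted p = 0.0346) and not in E (2.33, SE 0.96).

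Rsad2 (chromosome 12, 26442746 to 26456452, minus strand), which encodes viperin, and its neighbour Cmpk2 (26469204 to 26479837, plus strand), a nucleotide kinase of mitochondria, form a pair that yields chain-terminating nucleotides. Rsad2 measured 2.25 and 0.477 CPM in N, 70.2 and 29.4 in E, 6.87 and 6.89 in Y and 39.4 and 61.4 in EY. E and EY overlapped and both lay above Y and N. It rose by 4.90 in E (SE 0.62, adjusted p = 0.0329) and 4.93 in EY (SE 0.63, adjusted p = 0.00867). Cmpk2 measured 1.74 and 0.477 CPM in N, 16.2 and 11.0 in E, 2.67 and 2.87 in Y and 9.75 and 13.9 in EY. It was called in EY (3.22, SE 0.48, adjusted p = 0.011) and lay at an adjusted p of 0.0505 in E, with 3.38 (SE 0.47). Of the ADP-ribosylation and ubiquitin genes, Parp9, which works with the ligase Dtx3l, rose by 1.36 in E and 0.68 in EY. Parp14 was called in EY at 1.51, and Dtx3l was called in neither.

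Among membrane and secreted products, Lgals3bp (chromosome 11, 118392751 to 118402092, minus strand), a secreted galectin ligand, measured 1.26 and 1.43 CPM in N, 12.9 and 18.0 in E, 2.37 and 5.23 in Y and 16.3 and 16.4 in EY. It rose by 3.54 in E (SE 0.41, adjusted p = 0.0268) and by 3.62 in EY (SE 0.42, adjusted p = 0.0076), and E and EY overlapped. Bst2 (chromosome 8, 71534255 to 71537456, minus strand), or tetherin, which holds budding virions at the membrane, measured 33.6 and 18.0 CPM in N, 212 and 212 in E, 74.7 and 108 in Y and 243 and 234 in EY. It was the only member with both EY libraries above both E libraries, and the difference of 0.17 (SE 0.29, adjusted p = 0.708) was smaller than the spread. Bst2 rose by 3.02 in E (SE 0.31, adjusted p = 0.0245) and 3.19 in EY (SE 0.31, adjusted p = 0.00672), and with 1.80 in Y (SE 0.30, adjusted p = 0.0601) it came nearest to a call there. Ifi27l2a, a small membrane protein gene, measured 323 and 542 CPM in N, 2268 and 2866 in E, 1014 and 1236 in Y and 1709 and 525 in EY. Rtp4, a chaperone of receptors, rose in E (2.56) and EY (1.86). The low EY2 value of Ifi27l2a fell within the N range, which made it the only member whose EY and N libraries overlapped, and it was called in no group.

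The remaining genes act mostly in the nucleus or by routes that are less well known. Ifi44 (chromosome 3, 151730922 to 151749960, minus strand) measured 6.40 and 4.65 CPM in N, 74.6 and 73.6 in E, 11.7 and 19.9 in Y and 38.6 and 36.8 in EY. The order N, Y, EY, E held without overlap. It rose by 3.71 in E (SE 0.29, adjusted p = 0.0172) and 2.73 in EY (SE 0.29, adjusted p = 0.00672). Trim30a (chromosome 7, 104409025 to 104465193, minus strand), a restraint on innate signalling, had 0.138 and 0.119 CPM in N from 7 and 1 UMIs, 6.36 and 4.14 in E, 1.78 and 0.553 in Y and 4.47 and 2.41 in EY. It was called in EY (4.48, SE 0.77, adjusted p = 0.0148) and not in E (5.25, SE 0.74, adjusted p = 0.0514). Sp100, Phf11d, Xaf1 and Ifi35 rose in both groups, by 1.67 to 2.65 in E and 1.54 to 2.09 in EY.

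YAP alone left smaller values, none of which passed the test. All 34 fold changes of Y against N were positive, from 0.04 for Parp9 to 3.09 for Trim30a, with a median of 0.81 beside -0.00070 over all genes, and 30 of 34 members had both Y libraries above both N libraries, against 24.1% of all genes. edgeR called 0 members at an adjusted p under 0.05, where 0.384% of all genes were called higher, and DESeq2 called 9. An unadjusted p under 0.05 was found for 21 members and for 1649 of 13555 genes. The summed members without Ifi27l2a measured 584 and 895 CPM, 2.04 times the N mean. The count changed with the filters: edgeR called 24 members when cells with more genes or UMIs were let in, and 20 without the filter on low genes. The share of all genes called was not counted for DESeq2 or for other filters, here and below. All comparisons with N use the same 2 control libraries.

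With both transgenes, 30 of 34 members rose against N, at a higher background of 9.31% of all genes. The median was 2.06 beside -0.05 over all genes, and 33 of 34 members had both EY libraries above both N libraries, against 28.7% of all genes. The members not called were Irf9, Ddx60, Dtx3l and Ifi27l2a. The count was 1 without N replicate 1, 2 without EY replicate 2 and 12 without N replicate 2, with every fold change positive in each. Set against E, the EY values were mostly lower: 30 of 34 fold changes were negative, with a median of -0.61, and 22 members lay below both E libraries in both EY libraries, against 33.9% of all genes. Of the 34 members, 3 passed the test of EY against E, about the same share as the 8.46% of all genes that fell. They were Ddx60, lower by 1.20, Ifi44 by 0.98 and Parp9 by 0.68 on the log2 scale (adjusted p = 0.0464, 0.0445 and 0.0387). The 4 positive values were those of Oasl1, Bst2, Lgals3bp and Rsad2, of which none passed. EY against Y gave 33 positive fold changes with a median of 1.25, and 32 members had both EY libraries above both Y libraries, against 21.9% of all genes. There were 0 calls by edgeR, at 0.0221% of all genes, and 19 by DESeq2. An unadjusted p under 0.05 was found for 25 members and for 3169 of 13555 genes.

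**Figure D2:**
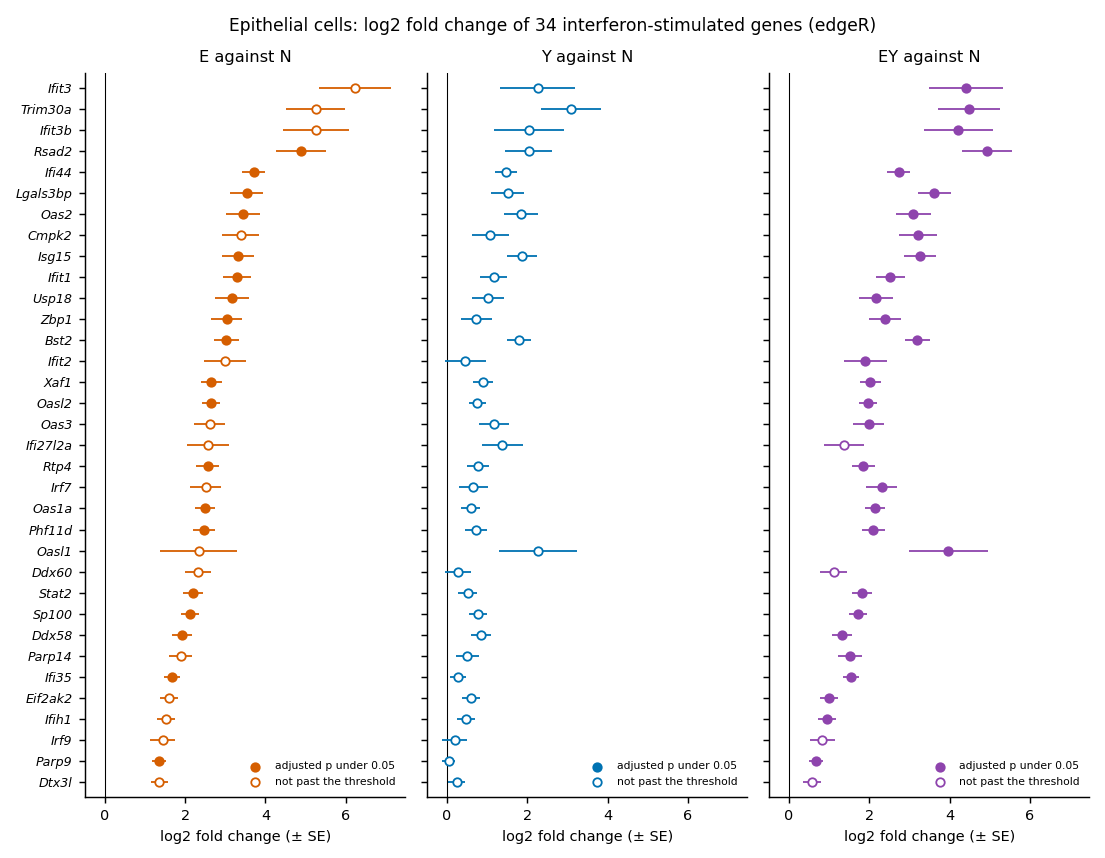
Log2 fold change of each of the 34 members in epithelial cells for E, Y and EY against N, with bars of 1 SE. Filled points have an adjusted p under 0.05 in edgeR's quasi-likelihood test. The E and EY points lie well to the right of 0, the Y points lie nearer to it, and none of the Y points is filled.

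Over all 8 libraries, 32 of 34 members had the 4 libraries with E6-E7 above the 4 without, against 2.23% of all genes, the exceptions being Oasl1 and Ifi27l2a. In the additive model the E6-E7 term was called for 10 members against 0.406% of all genes: Rsad2 (3.84), Lgals3bp (2.78), Cmpk2 (2.76), Zbp1 (2.36), Irf7 (2.08), Oas1a (2.02), Oasl2 (1.94), Phf11d (1.92), Stat2 (1.76) and Ifi35 (1.47). The YAP term was called for 0 members by edgeR, at 5.26% of all genes higher, and for 2 members by DESeq2. Only 2 members, Oasl1 and Bst2, had an unadjusted p under 0.05, a smaller share than the 4252 of 13555 genes that did. The interaction of the 2 transgenes was negative for all 34 members, with a median of -1.44 beside -0.07 over all genes. It was called for 0 members and for 0% of all genes by edgeR, and DESeq2 called 8 members. An unadjusted p under 0.05 was found for 27 members and for 1562 of 13555 genes. In the additive fit as in the others, cells of EY and of the other groups differed in neutrophil and Trbc2 RNA by the values given above, whose part in these differences was not tested.

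Single epithelial cells were compared after each was thinned to 2000 UMIs, which left out 5 shallower cells. The limit for a high cell was the 95th percentile of N cells, or over 7 UMIs of the 34 members. Of N cells, 3.54% (122 of 3446) and 3.86% (16 of 415) passed it. In E these were 54.7% (2216 of 4053, 95% exact interval 53.1 to 56.2%) and 58.0% (321 of 553, 53.8 to 62.2%). In Y they were 13.7% and 19.1%, and in EY 30.8% (52 of 169, 23.9 to 38.3%) and 23.7% (481 of 2027, 21.9 to 25.6%). The order N, Y, EY, E held without overlap of libraries here and in each of 4 other settings, among them a limit set without Ifi27l2a, where the shares were 42.1 to 47.9% in E and 33.1 to 34.1% in EY. Without thinning the shares were 59.6 and 64.2% in E, 34.1 and 26.0% in EY and 3.57 and 5.30% in N. Cells with 0 member UMIs after thinning made up 46.3 and 50.1% of N, 33.7 and 22.3% of Y, 19.5 and 26.3% of EY and 3.43 and 4.70% of E. In E the whole distribution thus stood higher, with a median of 8 and 9 UMIs per cell against 1 and 0 in N, whereas in EY the medians were 3 and 2. The intervals cover counting error only.

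**Figure D3:**
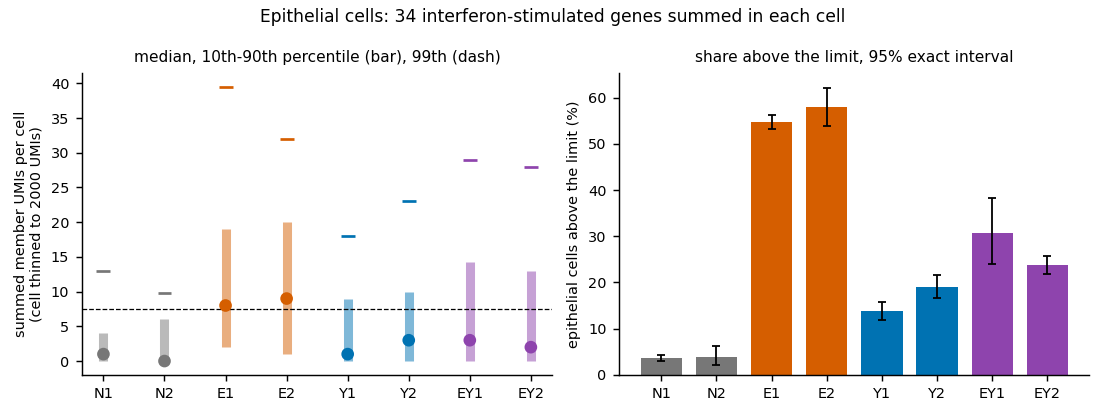
UMIs of the 34 members per epithelial cell thinned to 2000 UMIs, shown as percentiles for each library with the limit dashed, and the percentage of cells above that limit with its 95% exact binomial interval. The E libraries reach 54.7 and 58.0%, the EY libraries 30.8 and 23.7%, the Y libraries 13.7 and 19.1% and the N libraries 3.54 and 3.86%.

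The higher level in E was measured in basal and in suprabasal cells. The summed members without Ifi27l2a were 6.22 times the N mean in basal E cells and 5.34 times in suprabasal ones. In EY the ratios were 4.57 and 5.55, and in Y 1.95 and 2.25, with only 16 suprabasal cells in EY1. Cells were also divided by whether they held a UMI of meiotic genes that the E7 oncogene is known to derepress, a list that includes Zcwpw1, Stag3 and Smc1b. Such cells made up 11.4 and 7.05% of thinned E cells and 9.47 and 9.72% of EY cells, against at most 0.435% in N and Y, and without thinning 42.2 and 30.7% of E and 37.1 and 53.2% of EY cells. Within a library, the members' level in cells with such a UMI was 1.08 and 0.754 times that of the other cells in E, and 0.951 and 0.895 times in EY. These ratios rest on 461 and 39 cells with such a UMI in E, and on 16 and 197 in EY. In EY1 the cells with such a UMI had a median depth of 6338 UMIs before thinning, against 14936 in the others. In both groups the members were thus as high, within these ratios, in cells without a meiotic UMI, and a cell can express these genes and show no UMI at this depth.

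The members were also higher in the T cells and myeloid cells of the E libraries. In myeloid cells the summed members without Ifi27l2a measured 1775 and 1952 CPM in N, 8946 and 6474 in E, 2449 and 2957 in Y and 2892 and 1757 in EY. In T cells they measured 953 and 1283 in N, 4798 and 3382 in E, 1319 and 1420 in Y and 1389 and 1283 in EY. In these unscaled sums E was 4.14 and 3.66 times N in the 2 classes, while EY was 1.25 and 1.20 times N. EY overlapped N in myeloid cells. The myeloid TMM factors of EY, 0.693 and 0.781, were lower than those of every other library. The myeloid ratio of 1.25 and the overlap therefore hold for the unscaled sums only. In the TMM-scaled fit of myeloid cells, EY against N had a median log2 fold change of 0.71, with 30 of 34 values positive. In a sum of this kind a change in the mix of cells within a class and a change within each cell cannot be told apart.

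**Figure D4:**
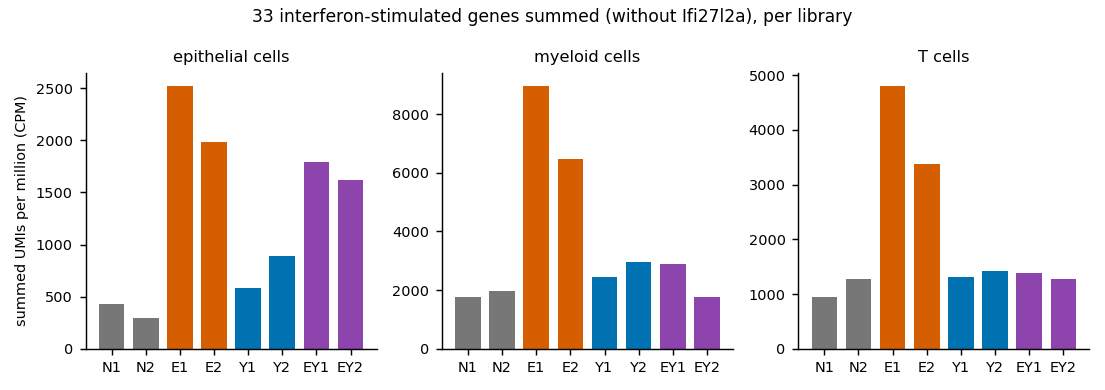
Summed CPM of 33 members, leaving out Ifi27l2a, in epithelial, myeloid and T cells of each library, on linear axes from 0 with a scale for each class. In all 3 classes both E libraries lie highest, and the EY libraries stand near E in epithelial cells and near N in myeloid and T cells. The sums are not TMM-scaled. Scaling raises the myeloid EY values relative to N, so their nearness to N there holds for the unscaled sums only.

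In myeloid cells all 34 fold changes of E against N were positive (median 1.81) and all 34 members had both E libraries above both N libraries, against 18% of 10733 genes. Isg15, Oasl1 and Phf11d passed the test, against 0.0373% of all genes. An unadjusted p under 0.05 was found for 31 members and for 683 of the 10733 genes. Isg15 measured 188 and 201 CPM in N, 1941 and 1246 in E, 481 and 375 in Y and 1011 and 614 in EY. E against N was 3.03 (SE 0.34, adjusted p = 0.0432) and EY against N 2.06 (SE 0.32, adjusted p = 0.0113), with no overlap between any of the groups. Oasl1, at 10.4 and 11.8 CPM in N, 191 and 95.8 in E, 24.6 and 40.5 in Y and 67.0 and 56.2 in EY, followed the same order, with 3.66 in E (SE 0.41, adjusted p = 0.0432) and 2.45 in EY (SE 0.40, adjusted p = 0.0118). These calls rest on few samples: the count was 0 without either N, either E or either EY library, and 22 by DESeq2. Y against N gave 0 calls by edgeR in myeloid cells, with 5 members at an unadjusted p under 0.05, beside 1062 of the 10733 genes.

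Most members were higher in the myeloid cells of EY than in those of N, but unevenly. Of the 34 fold changes, 30 were positive, with a median of 0.71 beside -0.04 over all genes. An unadjusted p under 0.05 was found for 16 members and for 3818 of 10733 genes. Isg15, Oasl1, Rsad2 (1.80), Parp14 (1.51) and Dtx3l (1.18) rose against N, 5 of 34 where 9.42% of all genes did. Both EY libraries lay above both N libraries for 17 members, against 30.1% of all genes, and below both E libraries for 23, against 30.4%. The 4 libraries with E6-E7 lay above the 4 without for 4 members, against 2.29%. Only 2 members, Bst2 and Phf11d, had both EY libraries below both N libraries, as 33% of all genes did. Bst2 measured 283 and 250 CPM in N, 750 and 688 in E, 263 and 492 in Y and 167 and 158 in EY, and Phf11d, a gene named for its zinc finger of the PHD type, 19.6 and 17.8, 117 and 80.7, 20.3 and 25.8, and 14.5 and 11.6 in the same order. Neither difference from N passed (Bst2 -0.71, adjusted p = 0.124, and Phf11d -0.47, adjusted p = 0.249). Against E, 10 members fell, where 4.88% of all genes did: Ifit3b by 3.05, Phf11d by 2.89, Ifi44 by 2.64, Ifit3 by 2.55, Bst2 by 2.15, Ifit2 by 1.99, Ifi27l2a by 1.95, Usp18 by 1.94, Irf7 by 1.73 and Lgals3bp by 1.58 on the log2 scale. The make-up of the class moved with this. S100a9 stood at 14.6 to 11159 CPM in the myeloid sums of N, E and Y and at 49961 and 39836 in EY, the macrophage gene C1qa at 1361 to 2238 against 263 and 853, and the 3 markers of plasmacytoid dendritic cells, the main makers of interferon alpha, summed to 68.6 to 230 against 8.63 and 2.90. The part of this shift in the members' values was not tested.

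In T cells all 33 members tested were higher in E than in N (median 2.08), and all 33 had both E libraries above both N libraries, against 15.8% of 10211 genes. edgeR called 0 members and 0% of all genes, and DESeq2 called 21 members. An unadjusted p under 0.05 was found for 32 members and for 283 of the 10211 genes. The 3 lowest adjusted p-values were 0.0574, for Isg15, Usp18 and Ifit2. Isg15 measured 85.3 and 85.1 CPM in N, 807 and 480 in E, 131 and 118 in Y and 179 and 231 in EY. Usp18 measured 4.84 and 9.83 CPM in N, 82.5 and 67.5 in E, 12.1 and 8.34 in Y and 10.1 and 6.92 in EY. The E libraries stood apart for both genes, and for Usp18 the other 3 groups overlapped. EY against N had a median of 0.35, with 0 calls by edgeR and 3 members at an unadjusted p under 0.05, beside 1173 of 10211 genes. Y against N had a median of 0.43 and 0 calls, where 0.0196% of all genes were called, with 3 members at an unadjusted p under 0.05, beside 340 genes. EY against E had a median of -1.64 with all 33 values negative and 0 calls, and 30 members had an unadjusted p under 0.05, beside 1020 genes.

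**Figure D5:**
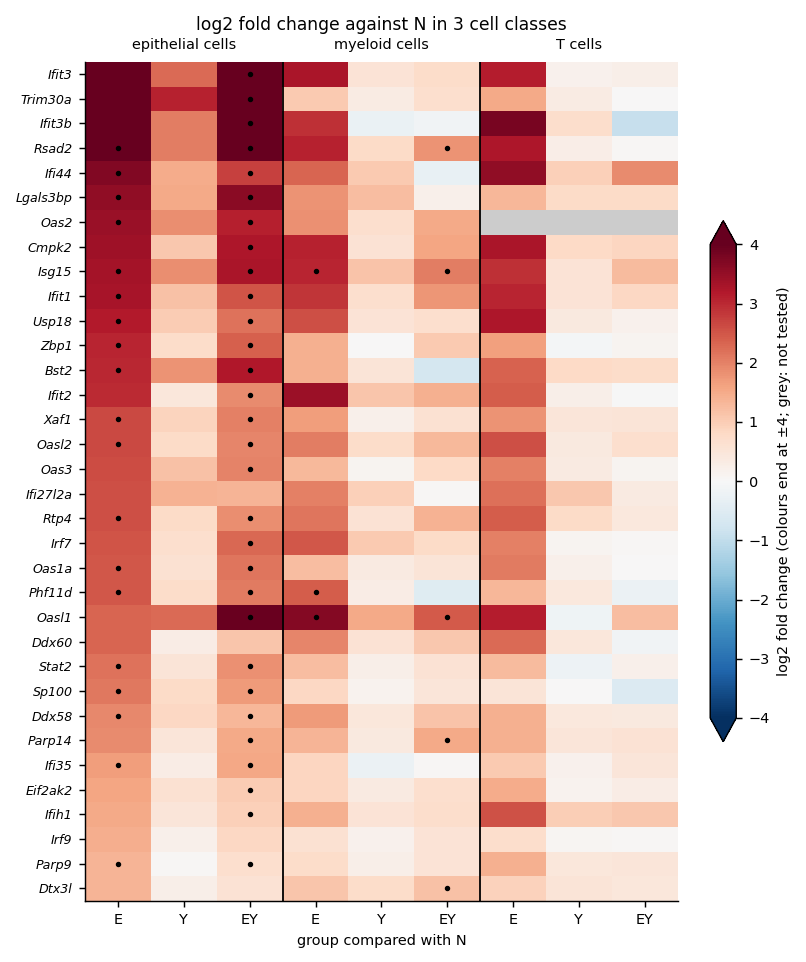
Log2 fold change of each of the 34 members for E, Y and EY against N in epithelial, myeloid and T cells, as colours, with a dot where the adjusted p was under 0.05. Oas2 in T cells, shown in grey, was not tested. The E columns are red in all 3 classes, and the EY column is a deeper red in the epithelial block than in the others.

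The difference between classes was itself tested, with the library as a block. For EY against N, the epithelial change exceeded that of T cells for 9 members, against 0.587% of 13449 genes: Rsad2 (4.83), Trim30a (4.12), Lgals3bp (2.65), Bst2 (2.47), Zbp1 (2.18), Sp100 (2.18), Irf7 (2.13), Isg15 (1.97) and Stat2 (1.63). It exceeded that of myeloid cells for 15 members, against 7.02% of 14058 genes, led by Ifit3b (5.41, SE 1.03), Bst2 (3.97, SE 0.29, adjusted p = 0.000133), Ifit3 (3.89), Trim30a (3.88), Rsad2 (3.50), Lgals3bp (3.39), Ifi44 (3.14) and Phf11d (2.66). The count of 9 was 0 without N replicate 2, 1 without EY replicate 2 and 4 without EY replicate 1, and the count of 15 was 7 without N replicate 2 and 5 without EY replicate 2. For E against N the same terms gave 0 members by edgeR in either pair of classes, with 11 and 17 at an unadjusted p under 0.05 and medians of 0.48 and 0.72, where 0.00744% and 0% of all genes were called. These medians were 1.0 and 1.14 without N replicate 1, and -0.00018 and 0.35 without N replicate 2, where 17 and 23 of the 34 differences were positive. For Y against N they gave 0 and 0 by edgeR, with 6 and 3 at an unadjusted p under 0.05, where 0.00744% and 0.249% of all genes were called. The share of all genes at an unadjusted p under 0.05 was not counted for these terms. In the additive form fixed for the main comparison, the E6-E7 term was larger in epithelial than in T cells for Lgals3bp (2.10, SE 0.22, adjusted p = 0.0086, against 0.0223% of all genes), and larger than in myeloid cells for Lgals3bp (2.55), Bst2 (2.14), Ifi44 (2.09) and Oas1a (1.29), against 0.114%. The YAP term was larger in epithelial than in T cells for Oasl1 (2.64), Rsad2 (2.61), Bst2 (1.38) and Isg15 (1.37), against 1.12%, and larger than in myeloid cells for Ifit3b (2.78), Bst2 (1.84) and Phf11d (1.49), against 3.78%. Myeloid markers in the T-cell sums stood at 287 to 684 CPM in N, E and Y and at 1084 and 3831 in EY, and their part in these differences was not tested.

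Few interferon transcripts were counted. Of 16 ligand genes among the features, 10 had 0 UMIs in all 24 sums of library and class, including all 9 interferon alpha genes. Ifnl2 and Ifnl3, which encode lambda interferons and are near-identical copies, had 46 and 48 UMIs in the epithelial cells of E1, held by 13 of 4055 cells, of which 4 had both and the top 3 held 77.7% of the UMIs. In those 13 cells the members without Ifi27l2a stood at 16954 CPM, against 2484 CPM in the other 4042 cells. No such cluster was counted in E2, whose 553 epithelial cells are too few to compare with the 4055 of E1 for so rare a cell. EY2 had 5 and 6 UMIs of the pair. Ifnb1, the type I form most cells can make, had 7 UMIs in 2 epithelial cells and 16 in 10 myeloid cells. Ifnk had 14 UMIs in 14 epithelial cells, of which 12 were in N1, 1 in E2 and 1 in Y1, and 10 UMIs in 10 myeloid cells. Ifnz had 9 UMIs in 9 epithelial cells and 1 UMI in 1 T cell. Ifng, the type II form, was the 1 ligand with many UMIs, 274 to 5494 in the T cells of each library and 53 in all epithelial cells together.

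The rest of the pathway moved with the members in part. The counts that follow stand against 0.236% of all genes called higher in E, 0.384% in Y and 9.31% in EY, so those of different groups are not comparable as they are. At an unadjusted p under 0.05 they stand against 506 of 13555 genes in E and 1649 in Y. Of the 10 receptor and kinase genes tested in epithelial cells, 0 were called in E or in Y by edgeR (1 and 1 at an unadjusted p under 0.05), and in EY Ifngr1, a chain of the gamma receptor, rose by 0.90 (adjusted p = 0.0177). Of 10 further sensing genes, Dhx58, a helicase that tunes RIG-I signalling, measured 3.52 and 2.26 CPM in N, 25.8 and 21.0 in E, 4.45 and 3.57 in Y and 11.8 and 11.8 in EY. It rose by 2.96 in E (adjusted p = 0.0184) and 1.97 in EY (adjusted p = 0.00931), and EY fell below E by 0.99 on the log2 scale. Tmem173, the gene of the DNA-sensing adaptor STING, measured 0.356 and 0.357 CPM in N, 0.366 and 0.239 in E, 1.61 and 1.76 in Y and 5.69 and 12.1 in EY, and rose in EY by 4.70 (SE 0.49, adjusted p = 0.00672) with no rise in E. Cgas (1.66), which makes the messenger for STING, and Samhd1 (2.46), a nucleotide hydrolase, rose in EY as well. None of the 5 feedback genes was called by edgeR in E, Y or EY against N, and 0 had an unadjusted p under 0.05. Of 29 other interferon-stimulated genes tested, 4 rose in E, namely Ifitm3 (1.12), Oas1g (2.57), Apol9a (3.01) and Apol9b (3.08), and 13 in EY. These 13 were the same 4 with Ifi204, Ifi203, Nmi, Helz2, Parp12, Slfn8, Trim25, Ly6e and Ifi47, at 1.05 to 4.15. Of 18 genes that lean towards interferon gamma, 0 passed in E by edgeR (median 1.77, 11 at an unadjusted p under 0.05), and 9 rose in EY (median 2.20): Gbp2 (2.85), Gbp3 (2.75), Gbp4 (3.92), Gbp5 (4.18), Gbp7 (2.24), Nlrc5 (1.48), Igtp (1.95), Tgtp1 (2.12) and Irf8 (2.31). Guanylate-binding proteins and immunity-related GTPases such as these attack the vacuoles of intracellular microbes.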

How the data were processed

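The authors deposited 1 matrix of raw UMI counts per library, made with Cell Ranger 5.0.0 per the file headers, on mm10 per the submitters' processing notes. The labels and the methods name different versions of the 10x kit. According to the methods, single cells were sorted by light scatter and by exclusion of viability dyes.

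A cell was kept if it had 1000 to 5500 genes, no more than 30000 UMIs and a mitochondrial share of no more than 7%. No doublet caller was run, as in the study. T cells had under 0.5% keratin UMIs, at least 2 UMIs of Cd3d, Cd3e and Cd3g, and under 3 of Csf1r, Cd68, Csf3r, Spi1 and Mpeg1. Myeloid cells had at least 3 of the latter, at least 1 of Tyrobp and 0 of CD3. Counts were summed per library and class, where at least 20 cells were required, and tested with edgeR 4.0.16 (limma 3.58.1, R 4.3.3): low genes were removed with filterByExpr, TMM factors ran from 0.953 to 1.04 in epithelial, 0.930 to 1.08 in T and 0.693 to 1.15 in myeloid cells, and p-values were adjusted over all genes of a fit. All 8 libraries entered 1 fit per class with group means, an additive fit of both transgenes, and fits of class differences with the library as a block. The terms of class by group were chosen after seeing the data. The standard error was the log2 fold change over the square root of F. Summed levels over the members were not TMM-scaled. Thinning, shares and exact intervals used Python 3.11.15 with numpy 2.4.6, scipy 1.17.1 and pandas 2.3.3. Alternatives were RLE factors, DESeq2 1.42.0, no filter on low genes, no upper limits on cells, a minimum of 200 genes, a keratin gate of 2%, basal or suprabasal cells, stricter immune gates, fits of 2 groups and leaving out each library.

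Tested on simulated data, the E against N fit over 13287 genes recovered 48.7% of 200 changed genes and 76.2% of those changed by at least 2 on the log2 scale. The EY against N fit over 13286 genes recovered 52.5% and 88.8%.

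The members and lists were chosen with earlier results of these data known. Members were printed in all libraries when called in E, Y or EY against N in epithelial cells, ordered by the E against N fold change, up to 12. Stat2, Bst2, Oasl1, Ifi27l2a and the members shown in myeloid cells were named for their direction or after their values were seen. Mx1 and Mx2 were not analysed here, and 1 gene of the pathway lists is not reported here.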

Additional observations from a re-analysis of the deposited data

Results flagged for a closer look

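Several members changed by different amounts in epithelial and immune cells of the same libraries, by a test of the difference itself. On the log2 scale, the E6-E7 term in epithelial cells minus that in T cells was 2.10 for Lgals3bp, where 0.0223% of all genes were called. Minus that in myeloid cells it was 2.09 for Ifi44, 1.29 for Oas1a, 2.14 for Bst2 and 2.55 for Lgals3bp, where 0.114% were. The YAP term in epithelial cells minus that in T cells was 1.37 for Isg15, 2.64 for Oasl1, 1.38 for Bst2 and 2.61 for Rsad2, where 1.12% of all genes were called. Minus that in myeloid cells it was 1.84 for Bst2, 1.49 for Phf11d and 2.78 for Ifit3b, where 3.78% were. With a term for each group, the EY against N change was larger in epithelial than in T cells for 9 members, against 0.587% of all genes. It was larger than in myeloid cells for 15, against 7.02%. Both counts were lower when N replicate 2 or EY replicate 2 was left out. For E against N the same terms gave 0 members by edgeR against either immune class, where 0.00744% and 0% of all genes were called. The EY myeloid and T-cell sums also differed from the others in S100a9 and myeloid marker RNA by the values given with those results, and the part of this in the differences was not tested.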

How the results depend on the processing

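The direction of the main contrasts held and the number of calls did not. In E against N all 34 epithelial fold changes were positive in each of 18 settings (median 2.52 to 2.79), in EY against N 32 to 34, in Y against N 32 to 34. Counts of members called in epithelial cells, in the order E against N, Y against N, EY against N, EY against E, EY against Y, interaction, E6-E7 term and YAP term, were 19, 0, 30, 3, 0, 0, 10 and 0 as reported. By DESeq2 they were 33, 9, 33, 6, 19, 8, 32 and 2, without the filter on low genes 34, 20, 33, 15, 24, 22, 34 and 4, and without upper limits on cells 29, 24, 30, 21, 11, 8, 1 and 2. With the 2% keratin gate they were 28, 4, 29, 9, 17, 0, 16 and 1. A minimum of 200 genes gave 1 for EY against E and 2 for EY against Y. Suprabasal cells, with EY1 left out for its 16 cells, gave 1, 1, 11, 0, 0, 0, 3 and 0, and the fit of N and E alone gave 1. In myeloid cells E against N (3) gave 22 by DESeq2, 29 unfiltered, 0 without upper limits, 0 with a minimum of 200 genes and 7 in the fit of 2 groups, and the E6-E7 term (0) gave 12 by DESeq2 and 25 unfiltered. In T cells E against N (0) gave 21 by DESeq2, 31 unfiltered, 6 with a minimum of 200 genes, 3 with the stricter gate and 6 in the fit of 2 groups, and the E6-E7 term (0) gave 1 by DESeq2 and 28 unfiltered. The E6-E7 term of epithelial minus T cells (1) gave 2 with RLE factors, 4 by DESeq2, 15 unfiltered, 2 without upper limits and 2 with the stricter gate, and of epithelial minus myeloid cells (4) gave 11 by DESeq2, 16 unfiltered and 2 without upper limits. Leaving out 1 library gave 0 to 17, 0 to 2, 1 to 28, 0 to 8, 0 to 7, 0 to 0, 0 to 13 and 0 to 1 in the epithelial order above, 0 to 3 and 0 to 0 in myeloid cells, 0 to 7 and 0 to 0 in T cells, and 1 to 5 and 2 to 4 for the 2 class differences. The EY against E count was 0 without N replicate 1, N replicate 2, E replicate 1, E replicate 2 or EY replicate 2 and 8 without EY replicate 1, which alone gave 7 in EY against Y. The E6-E7 count was 0 without N replicate 1, Y replicate 1 or EY replicate 1, 1 without N replicate 2 or E replicate 1, 4 without E replicate 2 and 5 without Y replicate 2. For the class by group terms, E, Y and EY against N gave 0 to 2, 0 to 1 and 0 to 12 against T cells and 0 to 1, 0 to 2 and 5 to 19 against myeloid cells. Where a group kept 1 library, it was assumed to vary like the others. Of values for single members, 489 kept their call under other settings, 106 lost it, and Irf7 in EY against N reversed, to -0.049 in suprabasal cells; with 1 library left out 249 kept and 311 lost it. The cause of these changes was not tested. Each group has 2 libraries, and the smallest epithelial sum, EY1, holds 170 cells, of 481 that met the gate without the upper limits on cells. The replicate numbers used here only tell the libraries of a group apart. No label pairs libraries across groups, so no paired analysis was made.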

Other observations

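Members with the core of the response element within 250 bases of the start had larger fold changes than those without it, given as a description. In E against N the medians were 3.29 for the 11 with it and 2.40 for the 16 without. They were 1.80 and 0.74 in Y and 3.19 and 1.93 in EY. The ranges overlapped, from 2.18 to 6.22 against 1.35 to 3.71 in E. The same core was found in 11 of 25 other interferon-stimulated genes and in 10 of 15 genes that lean towards interferon gamma with a matched promoter.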
